A study of Mus musculus with 20 samples.

Results

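The C-type lectin receptors are cell-surface proteins that share a fold first described in calcium-dependent sugar-binding proteins, and many of their mouse genes carry symbols beginning with Clec. Some genes with such symbols, among them Clec11a and Clec16a, do not encode surface receptors. All protein-coding genes with a symbol made of Clec and a digit were taken, except Clec1b, in 20 RNA-seq libraries of mouse fetal liver progenitor cells. This gave 31 genes of 53379 gene identifiers, 23 of them on chromosome 6. The set was chosen by earlier measured values of these data, in which Clec12a was high with the GATA2 variant T354M while other receptors of innate immunity were low. Every value from a comparison with T354M is therefore given as a description, with no test. The enhancer-null empty-vector libraries are the baseline of that choice as well as 1 side of the tests of enhancer loss, of GATA2 and of R307W against the empty vector, so the directions found in those tests are not independent of it. Clec7a and Clec2f are classed as pseudogene types in the GENCODE annotation but as protein-coding in RefSeq, and both were kept.

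The cells were Lin- hematopoietic progenitor cells, that is, cells depleted of those bearing mature lineage markers, infected with an MSCV retroviral vector right after isolation and cultured for 3 days. The study asked how cells that lack an enhancer of Gata2, which encodes a transcription factor of early blood cells, differ from wild-type cells, and what GATA2 or a variant of it changes in them. There were 5 groups of 4 libraries each. Wild-type cells received a control vector (wild-type empty-vector). Cells from mice without the enhancer 77 kb upstream of Gata2 received the control vector (enhancer-null empty-vector), the vector with Gata2 (GATA2), or the vector coding for GATA2 R307W (R307W) or GATA2 T354M (T354M). Every group thus carried a retrovirus, and the groups with GATA2, R307W and T354M all lacked the enhancer. For both empty-vector groups and the GATA2 group the labels give C57BL/6J as the strain, E14.5 as the age and IMDM with 20% FBS, 4% IL3-CM and 4% SCF-CM as the medium. For the libraries with R307W and T354M no age, strain or medium is recorded, so a difference in handling and an effect of either variant cannot be told apart in comparisons with the other groups. The labels do not say whether replicates came from separate animals or cultures, and p-values measure only the spread between these libraries. In bulk RNA, fewer cells of a type and less RNA per cell cannot be told apart, which applies to every value below.

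Library totals ran from 22330475 to 33245876 expected counts, RSEM's estimate of the reads that come from each gene. Levels are given as CPM (counts scaled to a common library total with TMM) unless stated. Gata2 was at 44.3 ± 9.8 CPM (SD, n = 4, as for all means below) in wild-type empty-vector libraries and at 5.79 ± 1.3 without the enhancer, and at 80.7 ± 37.3 with GATA2, 54.8 ± 23.7 with R307W and 52.0 ± 19.7 with T354M. Reads of the vector and of the gene are not separated in these counts. Among 12 progenitor markers, Kit had a mean of at least 76.5 CPM in every group. The list was mixed: 6 of the 12 rose and 4 fell without the enhancer, in the test of enhancer loss given below. Over all genes tested 20.1% were called as higher there and 23.2% as lower. Markers of mature myeloid cells were abundant in all groups: 18 monocyte and macrophage markers summed to 1617 to 3364 CPM per library in wild-type empty-vector, 6465 to 7247 in enhancer-null empty-vector, 1402 to 4220 with GATA2, 1345 to 4385 with R307W and 1568 to 5245 with T354M. The label Lin- describes the cells at isolation, before the culture.

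As background, many of these receptors are myeloid sensors of fungi, mycobacteria or dead cells. Activating members signal through ITAM motifs, their own or those of the adaptors FcRγ (gene Fcer1g) and DAP12 (gene Tyrobp), to the kinase Syk and then through Card9 to NF-kB; inhibitory members carry an ITIM, which recruits the phosphatases SHP-1 and SHP-2. Most of the genes lie in clusters within the natural killer gene complex and its neighbourhood on mouse chromosome 6.

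Of the 31 genes, 19 had counts enough to be tested and 12 did not (Clec2l, Clec4f, Clec2h, Clec2g, Clec2f, Clec2e, Clec12b, Clec1a, Clec4g, Clec18a, Clec3a and Clec3b). Each of the 12 had at least 1 count in some library, and the highest was 45 expected counts, for Clec2l in 1 library. The 19 passed the filter in part through the groups in which they were high, so counts over them describe those genes and not the family. Per gene length (TPM), Clec12a had the highest level of the family in every group except enhancer-null empty-vector, where Clec7a led with 96.4 ± 16.2 TPM against 88.2 ± 17.5 for Clec12a, a gap smaller than either SD. The summed TPM of the 31 genes was 245 ± 86.1 in wild-type empty-vector, 525 ± 52.1 in enhancer-null empty-vector, 299 ± 103 with GATA2, 350 ± 79.5 with R307W and 465 ± 83.4 with T354M. Clec12a made up 38.7 ± 1.24% of that sum in wild-type empty-vector, 16.7 ± 1.62% without the enhancer, 27.7 ± 4.27% with GATA2, 36.4 ± 7.61% with R307W and 47.7 ± 10.4% with T354M. The gap between the family's sums with T354M and in enhancer-null empty-vector cells was larger than the SD of the empty-vector group and smaller than the SD with T354M, and Clec12a took the larger share with T354M.

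**Figure D1:**
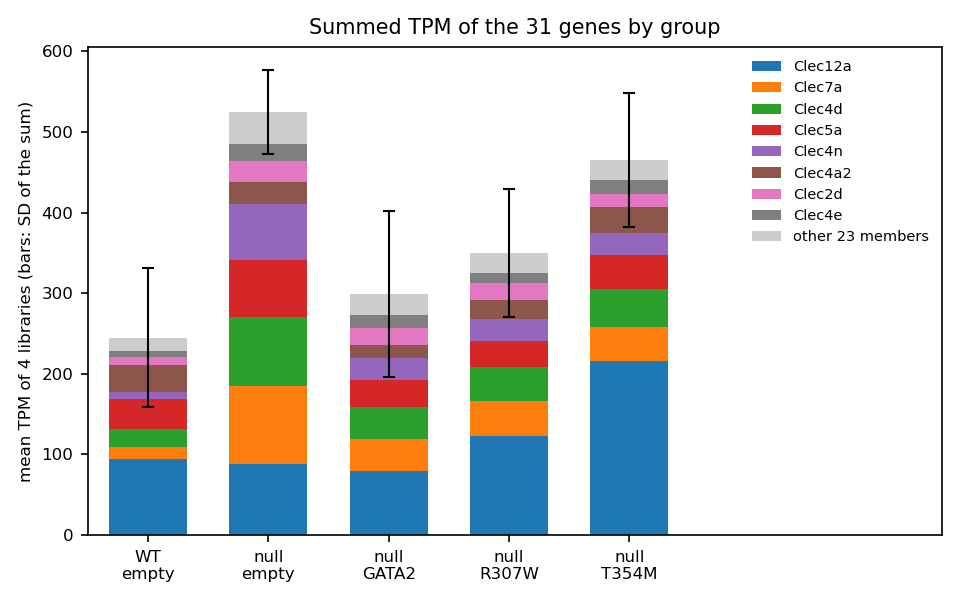
Mean TPM per group of the family's most abundant members, stacked from 0, with the remaining members summed; the 5 groups are on the x axis, each bar is the mean of 4 libraries and the error bars are the SD of the sum. Clec12a is the tallest band with T354M (216 TPM), and Clec7a, Clec4d and Clec4n take more of the bar in enhancer-null empty-vector than in the other groups.

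Promoter sequences of RefSeq (GRCm38.p6, from 250 bases before to 50 after the start site) were read for the 2 genes that stood highest with T354M relative to the empty vector, Clec12a and Clec4b2, for Clec4a2, which stood lowest with GATA2, and for Clec7a, the gene with the highest level per length in enhancer-null empty-vector cells. They are printed 5′ to 3′ on the strand of the gene, with matches to the letters AGATAA (bound by GATA factors), GAGGAA (a core site of PU.1 and other ETS factors), TTGCNNAA (C/EBP), TGTGGT (RUNX) and the interferon-stimulated response element, that is, GAAA repeated after any 2 bases, on either strand in capitals. They lie at chr6:129349994-129350293 for Clec12a (plus strand), chr6:123172773-123173072 for Clec4b2 (plus), chr6:123122440-123122739 for Clec4a2 (plus) and chr6:129472730-129473029 for Clec7a (minus). The RefSeq starts of Clec12a, Clec4b2 and Clec4a2 lie inside the gene spans of GENCODE.
Clec12a: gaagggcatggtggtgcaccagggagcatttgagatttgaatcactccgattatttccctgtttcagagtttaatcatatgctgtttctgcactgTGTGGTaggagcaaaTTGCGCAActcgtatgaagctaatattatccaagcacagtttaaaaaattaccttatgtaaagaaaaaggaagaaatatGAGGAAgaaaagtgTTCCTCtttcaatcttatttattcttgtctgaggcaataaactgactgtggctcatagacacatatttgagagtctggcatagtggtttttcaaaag
Clec4b2: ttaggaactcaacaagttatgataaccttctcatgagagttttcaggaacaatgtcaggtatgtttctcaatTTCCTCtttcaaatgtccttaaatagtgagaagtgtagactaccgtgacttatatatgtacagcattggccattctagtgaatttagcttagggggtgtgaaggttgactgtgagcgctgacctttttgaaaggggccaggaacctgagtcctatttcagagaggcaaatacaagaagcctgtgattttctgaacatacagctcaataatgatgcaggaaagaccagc
Clec4a2: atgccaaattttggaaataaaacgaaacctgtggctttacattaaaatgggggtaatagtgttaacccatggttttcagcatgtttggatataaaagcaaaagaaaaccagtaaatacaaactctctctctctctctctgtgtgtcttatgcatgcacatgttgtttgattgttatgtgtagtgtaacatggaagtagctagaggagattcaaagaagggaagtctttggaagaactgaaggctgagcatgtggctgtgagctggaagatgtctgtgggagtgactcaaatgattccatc
Clec7a: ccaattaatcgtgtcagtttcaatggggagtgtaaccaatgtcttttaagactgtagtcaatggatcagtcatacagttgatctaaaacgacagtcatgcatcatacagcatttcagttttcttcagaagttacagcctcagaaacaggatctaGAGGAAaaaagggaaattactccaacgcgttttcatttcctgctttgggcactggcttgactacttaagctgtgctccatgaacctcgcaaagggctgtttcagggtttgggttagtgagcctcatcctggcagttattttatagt

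The Clec12a window held TGTGGT at -155, TTGCGCAA, which matches TTGCNNAA on both strands, at -140, GAGGAA at -61 and its reverse complement TTCCTC at -47 relative to the start site. The Clec4b2 window held TTCCTC at -178 and the Clec7a window GAGGAA at -96, while the Clec4a2 window held none of the 5 motifs. Of the 19 tested genes 16 had a promoter in the table, and GAGGAA or its complement was found in 11 of them (28.3% of 27025 promoters of this length), TTGCNNAA in 5 (10.8%), TGTGGT in 6 (16.9%), the interferon-stimulated response element in 3 (3.49%) and AGATAA in 0 (11.4%). In Clec4b1 and Clec4d a GAGGAA match overlaps a match to the interferon-stimulated response element. A match says only that these letters occur in the window, and none of these data bear on binding.

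Loss of the enhancer was tested by comparing the 2 empty-vector groups. Of the 19 genes, 11 rose and 2 fell in enhancer-null cells (edgeR quasi-likelihood test, Benjamini-Hochberg adjusted p under 0.05 over 15835 genes). Over all genes tested, 43.3% were called in this comparison, 20.1% as higher and 23.2% as lower. The median log2 difference was 1.55 over the 19 genes and -0.05 over all genes tested. All 13 calls were at least 2-fold, as were 18.8% of all genes by both criteria, and for those 13 genes the 4 libraries of each group did not overlap, as held for 38.8% of all genes.

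Of the more abundant activating receptors that signal through Syk, Clec7a, Clec4n, Clec4d and Clec4e rose, while Clec5a did not pass. This list leaves out members at lower levels, of which Clec4b2 and Clec9a fell and others rose, as described below. Clec7a (Dectin-1, the receptor of fungal beta-glucan, chr6:129461591-129472779 in GRCm38, as all positions below) was at 18.7, 53.6, 26.3 and 21.3 CPM in the wild-type and at 184, 199, 163 and 154 in the enhancer-null empty-vector libraries. It rose 5.85-fold (log2 difference 2.55 ± 0.48 SE, adjusted p = 0.000277). Every enhancer-null library stood above the highest wild-type library, replicate 2.

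Clec4n (Dectin-2, which binds fungal mannans and signals through FcRγ, chr6:123229843-123247021) was at 8.0, 17.5, 8.36 and 8.52 CPM in wild-type and at 78.1, 69.2, 81.8 and 89.4 in enhancer-null empty-vector libraries. This was the largest fold among the receptors whose mean reached 5 CPM in some group, 7.53-fold (log2 2.91 ± 0.44, adjusted p = 3.12e-05). Its neighbours Clec4d and Clec4e, which encode the mycobacterial glycolipid receptors MCL and Mincle, rose with smaller folds. Clec4d (chr6:123262111-123275265) was at 20.5, 37.5, 18.5 and 17.9 CPM in wild-type and at 75.7, 85.6, 93.5 and 96.9 in enhancer-null empty-vector libraries, a 3.73-fold rise (adjusted p = 0.000151). Clec4e (chr6:123281789-123289870) was at 11.2, 27.1, 14.51 and 9.59 CPM in wild-type and at 44.9, 58.7, 44.3 and 34.5 in enhancer-null empty-vector libraries, a 2.93-fold rise (adjusted p = 0.000608). In all 3 genes wild-type replicate 2 was the highest of its group and lay below every enhancer-null library.

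Clec5a (MDL-1, a DAP12-coupled receptor, chr6:40574894-40585821) was at 56.1, 109, 64.8 and 45 CPM in wild-type and at 103, 141, 108 and 105 in enhancer-null empty-vector libraries, so the groups overlapped through wild-type replicate 2 (log2 0.74 ± 0.37, adjusted p = 0.119). Without that library the log2 difference was 1.08 and the adjusted p 0.0335, and in a fit of the 8 libraries alone the adjusted p was 0.0242.

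Of the receptors with an ITIM, Clec12a and Clec4a2 did not pass the test and Clec4a4, described with the Clec4 cluster, rose. Clec12a (MICL, a receptor of uric acid crystals and dead cells, chr6:129342691-129365303) was at 158, 259, 187 and 150 CPM in wild-type and at 175, 205, 158 and 150 in enhancer-null empty-vector libraries. The groups overlapped throughout (log2 -0.13 ± 0.16, adjusted p = 0.557). Clec4a2 (DCIR, chr6:123106428-123143999) was at 28.9, 54.3, 36.8 and 29.9 CPM in wild-type and at 27.3, 30.1, 30.3 and 27.9 in enhancer-null empty-vector libraries, which overlapped as well (log2 -0.37 ± 0.23, adjusted p = 0.204).

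Clec4a1 and Clec4a3 encode relatives of DCIR without an ITIM. Clec4a1 (chr6:122921848-122934619) was at 2.17, 5.15, 3.00 and 3.27 CPM in wild-type and at 17.2, 13.3, 13.6 and 12.8 in enhancer-null empty-vector libraries, and rose 4.19-fold (adjusted p = 0.00237). Clec4a3 (chr6:122952515-122969875) was at 3.09, 5.45, 3.24 and 3.67 CPM in wild-type and at 17.2, 14.0, 12.2 and 12.6 in enhancer-null empty-vector libraries, and rose 3.62-fold (adjusted p = 0.00198). The pair lies side by side at the start of the Clec4 cluster, and in both genes all enhancer-null libraries stood above all wild-type libraries.

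The remaining Clec4 genes of the cluster had few counts. Clec4a4 (DCIR2, an ITIM receptor of dendritic cells) had a mean of 0.0987 ± 0.0431 CPM in wild-type and 1.61 ± 0.591 in enhancer-null empty-vector libraries, from 9 and 164 counts over the 4 libraries, and rose (log2 3.97 ± 0.83, adjusted p = 0.000697). Clec4b1 had 4 and 48 counts and passed the threshold (log2 3.31 ± 1.29, adjusted p = 0.0450), but not without any of 7 of the 8 libraries, all but wild-type replicate 3 (adjusted p 0.0557 to 0.110). Clec4b2 (chr6:123172893-123204671) went the other way. Its values in each library, which were picked out after they had been seen, were 2.04, 2.95, 2.16 and 2.20 CPM in wild-type and 0.639, 1.3, 0.655 and 0.711 in enhancer-null empty-vector libraries. It was 2.82-fold lower (log2 -1.50 ± 0.28, adjusted p = 0.000282) and lies between Clec4a2 and Clec4n, a gene that rose. The counts of Clec4a4, Clec4b1 and Clec4a2 are uncertain, since 15.7%, 8.68% and 6.69% of the 50-base stretches of their transcripts are also found in another of these 3 genes; Clec4b2, Clec4d, Clec4e, Clec7a, Clec5a, Clec4a1 and Clec4a3 share none with another gene, and Clec4n 0.686%.

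**Figure D2:**
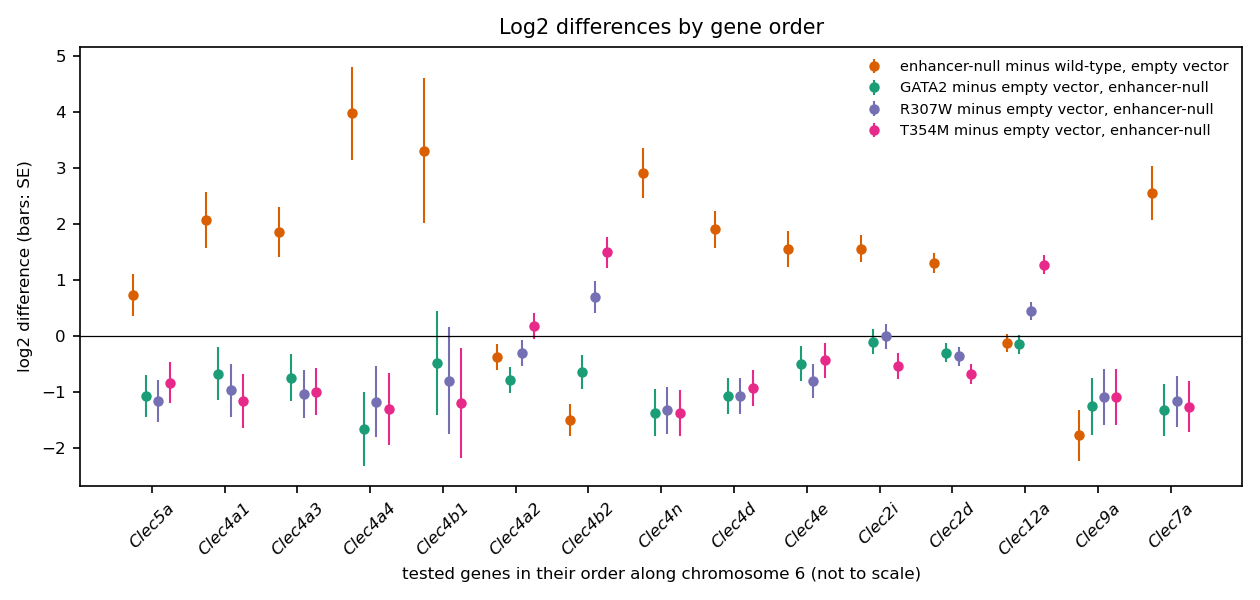
Log2 difference in CPM (y axis) for the tested genes on chromosome 6 in their order along it (x axis, not to scale); colours mark the comparisons and error bars are 1 SE. Within the Clec4 cluster, in enhancer-null against wild-type empty-vector cells, Clec4a2 (-0.37) and Clec4b2 (-1.50) lie below 0 and the other 7 genes above it.

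Clec2d and Clec2i encode ligands of natural killer cell receptors of the NKR-P1 family, and both rose. Clec2d (chr6:129180615-129186534) was at 10.5, 14.53, 13.1 and 12.0 CPM in wild-type and at 37.6, 26.6, 27.4 and 32.0 in enhancer-null empty-vector libraries, 2.47-fold higher (adjusted p = 8.4e-06). Clec2i was 2.94-fold higher (1.31 ± 0.433 against 3.85 ± 0.435 CPM, adjusted p = 3.38e-05). Klrb1f, which encodes a known receptor of the Clec2i protein, also rose, from 3.47 ± 0.71 to 9.71 ± 1.04 CPM (adjusted p = 5.74e-06). The 12 natural killer cell markers summed to at most 53.2 CPM in any library, and Klra8 was at 0 in every group and Ncr1 at a mean of at most 0.030 CPM. Only 4 of the 12 markers were tested, and 3 rose and 1 fell without the enhancer, with a median log2 difference of 2.31. Over all genes tested 20.1% were called as higher and 23.2% as lower. Clec2i overlaps BC035044 on the opposite strand outside exons, and the strand setting of the counting is not given in the sources used here.

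Of the receptors known from dendritic cells and macrophages, Clec10a (a galactose-binding receptor of macrophages and dendritic cells) rose 3.65-fold, from 0.891 ± 0.267 to 3.26 ± 0.419 CPM (adjusted p = 0.00133), though 9.02% of its 50-base stretches are also found in Mgl2. Clec9a (DNGR-1, which binds actin filaments of dead cells and marks cross-presenting dendritic cells) fell 3.42-fold, from 2.34 ± 0.945 to 0.678 ± 0.351 CPM (log2 -1.78, adjusted p = 0.00341). Its exons overlap those of Clec1b, a platelet receptor gene, by 184 bases on the same strand, and Clec1b fell in the same comparison from 27.1 ± 7.88 to 6.79 ± 2.38 CPM. How far reads of Clec1b are in the Clec9a count was not tested. The dendritic cell markers moved the other way from Clec9a: 14 of them summed to 187 to 219 CPM in wild-type and 607 to 909 in enhancer-null empty-vector libraries, while Xcr1, which defines the Clec9a-bearing subset, had a mean of at most 0.123 CPM in any group.

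The other 3 tested genes did not pass. Clec11a, which encodes a secreted growth factor, was at 1.44 ± 0.23 and 2.00 ± 0.506 CPM (adjusted p = 0.0838). Clec14a, an endothelial gene, was at 0.348 and 0.266 CPM (adjusted p = 0.696). Clec16a, an autophagy gene whose product is not a surface receptor, was at 16.2 ± 2.02 and 17.1 ± 0.597 CPM (adjusted p = 0.523), and its mean stayed between 16.2 and 17.2 CPM in all 5 groups.

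The rise of these receptors stood beside changes in marker sums. The monocyte and macrophage sum was at most 3364 CPM in wild-type (replicate 2) and at least 6465 in enhancer-null empty-vector libraries, and the 18 neutrophil markers summed to 8546 to 18069 and 4278 to 5686 CPM. Wild-type replicate 2 had the highest value of its group for 14 of the 19 genes and the highest sum of both marker lists. The part of cell composition in these results was not tested. All calls named above except Clec4b1 also held without wild-type replicate 2.

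Genes that act downstream of the activating receptors moved too. Of 50 signalling genes listed, 48 were tested, and 30 rose and 6 fell without the enhancer, with a median log2 difference of 0.79. Over all genes tested 20.1% were called as higher and 23.2% as lower, with a median of -0.05. Tyrobp, the gene of the adaptor DAP12, rose from 154 ± 28.2 to 368 ± 22.9 CPM (adjusted p = 5.72e-08), Nfkb1 from 78.2 ± 7.71 to 148 ± 4.93 (adjusted p = 2.17e-08) and Pycard, which encodes an inflammasome adaptor, from 31.1 ± 2.89 to 78.6 ± 6.99 (adjusted p = 8.95e-08). The cytokine gene Il6 fell from 14.3 ± 5.19 to 0.741 ± 0.0811 CPM (adjusted p = 1.29e-05), the lipid phosphatase gene Inpp5j from 4.55 ± 2.80 to 1.71 ± 0.30 (adjusted p = 0.00892) and Nfatc3, a transcription factor gene, from 131 ± 11.2 to 114 ± 3.49 (adjusted p = 0.0233). Of 59 C-type lectin domain genes with other symbols, 26 were tested, and 13 rose and 6 fell, with a median log2 difference of 0.90. The share of all genes called as lower was again 23.2%, and as higher 20.1%. Klrd1, which encodes CD94, rose from 0.726 ± 0.138 to 12.9 ± 1.51 CPM (adjusted p = 8.16e-06), and Cd69, an early activation gene of leukocytes, from 33.4 ± 8.07 to 63.5 ± 3.50 (adjusted p = 8.32e-06). Prg2 and Prg3, genes of eosinophil granule proteins, fell from 505 ± 132 to 3.12 ± 1.71 and from 37.1 ± 8.99 to 0.164 ± 0.114 CPM (adjusted p = 2.64e-08 and 1.1e-08), and Olr1, the gene of an oxidised LDL receptor, from 27.9 ± 4.07 to 6.30 ± 1.16 (adjusted p = 3.38e-08).

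GATA2 was then compared with the empty vector in enhancer-null cells. Clec4n, Clec4d and Clec4a2 fell, and no gene of the family rose; over all genes tested 19.2% were called, 11% as higher and 8.23% as lower. The log2 difference was below 0 for 18 of the 19 genes, with a median of -0.67 against 0.00 over all genes tested. In 8 of the 19 the libraries of the groups did not overlap, as for 28.3% of all genes.

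Clec4n was at 33.9, 27.2, 50.5 and 11.9 CPM with GATA2, every library below the 69.2 to 89.4 of the empty vector (2.58-fold lower, log2 -1.37 ± 0.41, adjusted p = 0.0272). Clec4d was at 43.9, 39.5, 57.7 and 26.3 CPM with GATA2, again below all 4 empty-vector libraries (2.10-fold lower, adjusted p = 0.0285). Clec4a2, which enhancer loss had not changed beyond its spread, was at 16.6, 18.6, 23.5 and 8.53 CPM with GATA2 (1.72-fold lower, adjusted p = 0.0253). Replicate 4 was the lowest GATA2 library for all 3 genes.

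Some receptors had GATA2 libraries that were all below those of the empty vector but did not pass: Clec7a at 68.8, 76.9, 106 and 28.4 CPM (log2 -1.32 ± 0.46, adjusted p = 0.0510), Clec5a at 55.5, 66.9, 72.4 and 23.9 (log2 -1.06 ± 0.37, adjusted p = 0.0530), Clec4a1 at 11.9, 8.37, 11.8 and 3.56 (adjusted p = 0.366) and Clec4a3 at 10.5, 7.88, 11.3 and 3.74 (adjusted p = 0.241). Clec4e was at 35.7, 40.5, 36.6 and 16.8 CPM and Clec2d at 29.6, 18.6, 27.8 and 24.3, which overlapped the empty vector (adjusted p = 0.302 and 0.248). Clec12a, at 149, 177, 182 and 113 CPM, overlapped it as well (log2 -0.15 ± 0.16, adjusted p = 0.605).

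These counts, from a fit that does not use the replicate numbers, leaned on single libraries. No gene was called without enhancer-null empty-vector replicate 3, GATA2 replicate 1 or GATA2 replicate 4, where 14%, 13.5% and 9.77% of all genes were, and only Clec4a2 without empty-vector replicate 4 or GATA2 replicate 2 (13.4% and 13.9% of all genes); Clec4a2 itself was not called without empty-vector replicate 2 (adjusted p = 0.0531). Without GATA2 replicate 3 the count was 7, Clec2f included, beside 21% of all genes. With the replicate number as a block, which these groups share, 7 of the 19 genes were called, and 25.8% of all genes, against 19.2% without the block. They were the 3 above and Clec7a (log2 -1.47, adjusted p = 0.00179), Clec5a (-1.18, adjusted p = 0.00046), Clec4a4 (-2.01, adjusted p = 0.00328) and Clec4e (-0.53, adjusted p = 0.0240). GATA2 replicate 4 was the lowest of its group for 12 of the 19 genes, and its monocyte and macrophage marker sum was 1402 CPM against 3035 to 4220 in the other GATA2 libraries; the part of that difference in these results was not tested. Without the replicate 4 library of every group, Clec4d, Clec4n, Clec5a and Clec7a were called, beside 12.6% of all genes. Of the 48 signalling genes 8 rose and 16 fell with GATA2, and of the 26 other C-type lectin domain genes 5 rose and 10 fell. Over all genes tested 11% were called as higher with GATA2 and 8.23% as lower.

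Against the wild-type empty-vector libraries, GATA2 cells still differed in 10 of the 19 genes, 7 higher and 3 lower, where 30.7% of all genes were called (14.7% as higher, 16% as lower) and the median log2 difference was 1.00 against 0.00. In 7 of the 19 genes the libraries did not overlap, as for 25.3% of all genes. Clec4n was still 2.92-fold higher (adjusted p = 0.00958), Clec2d 2.01-fold (adjusted p = 0.000224), Clec2i 2.74-fold (adjusted p = 0.000122) and Clec4e 2.08-fold (adjusted p = 0.0155). Clec10a, Clec4a1 and Clec11a were also higher (adjusted p = 0.0422, 0.0386 and 0.0274), but each of these 3 calls was lost without some single library: Clec10a without wild-type replicate 2, 3 or 4 or GATA2 replicate 1 or 3, Clec4a1 without wild-type replicate 1, 3 or 4 or GATA2 replicate 1, 2 or 3, and Clec11a without wild-type replicate 3 or 4 or GATA2 replicate 2. Without GATA2 replicate 4, Clec4a3, Clec4a4, Clec4d and Clec7a were called as well, beside 28.5% of all genes. Clec4a2 was 2.23-fold lower (log2 -1.16 ± 0.24, adjusted p = 0.000916), Clec4b2 4.40-fold lower (log2 -2.14, adjusted p = 1.85e-05) and Clec9a 8.17-fold lower (log2 -3.03, adjusted p = 0.000108). Clec4b2 and Clec9a thus stood lower with GATA2 than in wild-type cells, the direction they had after enhancer loss. The overlap of Clec9a exons with those of Clec1b, given above, applies to this comparison too, and its part was not tested.

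R307W was compared with the empty vector in the same way. Clec4n, Clec4d and Clec5a fell and none rose, where 17.5% of all genes were called, 10% as higher and 7.48% as lower; the median log2 difference was -0.80 over the 19 genes and 0.02 over all genes tested, and in 9 of the 19 the libraries did not overlap, as for 27.1% of all genes. Clec4n was at 31.6, 40.2, 42.7 and 12.6 CPM with R307W (2.51-fold lower than the empty vector, adjusted p = 0.0333). Clec4d was at 40.1, 53.0, 54.5 and 20.1 CPM (2.10-fold lower, adjusted p = 0.0308), and Clec5a at 45.9, 75.6, 60.8 and 21.9 CPM (2.24-fold lower, adjusted p = 0.0386). All R307W libraries lay below all empty-vector libraries for these 3 genes, and replicate 4 was the lowest.

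The other named receptors did not pass against the empty vector. Clec7a was at 81.1, 115, 90.1 and 25.9 CPM with R307W, all below the 154 to 199 of the empty vector (adjusted p = 0.0855). Clec4e, at 28.3, 32.0, 30.1 and 14.3 CPM, lay below all empty-vector libraries too (adjusted p = 0.0809), as did Clec4a1 at 9.89, 8.40, 9.20 and 1.69 (adjusted p = 0.170) and Clec4a3 at 8.93, 8.29, 8.30 and 1.90 (adjusted p = 0.0987). Clec4a2, at 22.3, 29.3, 22.1 and 19.6 CPM, and Clec2d, at 31.2, 18.7, 22.4 and 23.9, overlapped the empty vector (adjusted p = 0.392 and 0.153). Clec12a was at 237, 264, 224 and 212 CPM, each library above all 4 empty-vector libraries, but did not pass (log2 0.45 ± 0.16, adjusted p = 0.0689); it did without empty-vector replicate 2 (adjusted p = 0.0491). In a fit of the 8 libraries alone Clec12a, Clec7a and Clec4e passed (adjusted p = 0.0216, 0.0453 and 0.0450), where 21.5% of all genes were called. With the replicate number as a block these 3 passed as well (adjusted p = 0.0324, 0.00330 and 0.00177). So did Clec4a1 and Clec4a3 (adjusted p = 0.0299 and 0.0129), where 25.9% of all genes were called. For R307W and the empty vector the numbers were not taken to pair the libraries, for the reason given with the processing.

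No gene of these 19 was called without empty-vector replicate 3 or 4 or R307W replicate 1 or 4, where 12.4%, 11%, 12.3% and 7.91% of all genes were. Without R307W replicate 2 or without R307W replicate 3, 5 members of the family were called, Clec2f included, beside 18.4% and 15.5% of all genes. Clec5a was also lost without empty-vector replicate 1 or 2 or R307W replicate 3, Clec4n without empty-vector replicate 1 and Clec4d without empty-vector replicate 2. R307W replicate 4 was the lowest of its group for 14 of the 19 genes and had a monocyte and macrophage marker sum of 1345 CPM against 3290 to 4385 in the other 3; the part of that difference in these results was not tested. Of the 48 signalling genes 4 rose and 18 fell with R307W, and of the 26 other C-type lectin domain genes 4 rose and 5 fell. Over all genes tested 10% were called as higher with R307W and 7.48% as lower.

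R307W and GATA2 were compared directly. Clec4b2 was the single member called, where 1.73% of all genes were called 0.587% as higher and 1.14% as lower. It was at 0.573, 0.609, 0.412 and 0.514 CPM with GATA2 and at 1.41, 1.93, 0.702 and 1.27 with R307W, so that the groups did not overlap, as for 6.08% of all genes (2.51-fold higher, log2 1.33 ± 0.30, adjusted p = 0.0228). These levels rest on 58 and 143 counts over 4 libraries, and the call was lost without GATA2 replicate 1, 3 or 4 or R307W replicate 1 or 2 (adjusted p 0.0614 to 0.109). Clec12a was 1.51-fold higher with R307W than with GATA2, also with no overlap of the libraries, but missed the threshold (log2 0.59 ± 0.17, adjusted p = 0.0849); with the replicate number as a block it passed (log2 0.60, adjusted p = 0.0353), where 2.78% of all genes were called. The other 17 genes did not pass, and the median log2 difference was 0.03 over the 19 and 0.01 over all genes tested.

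With T354M, the values that led to the choice of these genes were as follows. Clec12a was at 431, 355, 402 and 477 CPM with T354M, against at most 205 in any empty-vector enhancer-null library, 182 with GATA2, 264 with R307W and 259 in wild-type cells. The T354M libraries did not overlap those of any other group. The fitted log2 difference was 1.27 ± 0.17 SE against the empty vector (2.42-fold), 1.42 ± 0.17 against GATA2 (2.68-fold), and R307W stood at -0.83 ± 0.17 against T354M. By mean the order was T354M, R307W, wild-type empty-vector, enhancer-null empty-vector and GATA2; the last 3 overlapped, and so did R307W with wild-type.

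**Figure D3:**
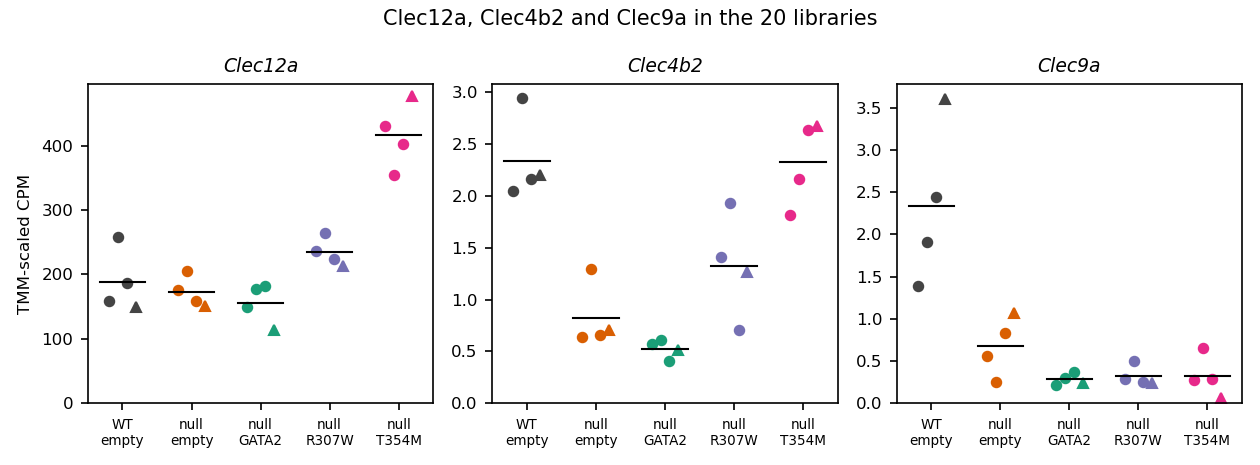
Clec12a, Clec4b2 and Clec9a in CPM (y axes, linear from 0) in each of the 20 libraries by group; circles are replicates 1 to 3, triangles replicate 4 and bars the group means. For Clec12a the 4 T354M libraries sit between 355 and 477, above all others, and the R307W libraries between 212 and 264.

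The T354M and empty-vector libraries did not overlap in 11 of the 19 genes, beside 24.9% of all genes; nothing is read from this count. Clec4b2 was at 1.82, 2.16, 2.63 and 2.67 CPM with T354M, 2.81-fold above the empty vector; 3 of these libraries lay within the range of the wild-type libraries (2.04 to 2.95) and replicate 1 below it. Clec4a2 was at 28.2, 39.1, 31.7 and 32.2 CPM, which overlapped the empty vector and lay above all GATA2 libraries (1.95-fold). Clec12a, Clec4b2 and Clec4a2 were the genes whose T354M libraries did not overlap those with GATA2, beside 14.8% of all genes. Between R307W and T354M the libraries did not overlap for Clec12a, which was lower with R307W, beside 8.14% of all genes.

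The activating receptors Clec7a, Clec4n, Clec4d, Clec4e and Clec5a stood with T354M near their levels with GATA2 and R307W. Clec7a was at 68.9, 129, 65.4 and 29.2 CPM with T354M, all below the 154 to 199 of the empty vector. Clec4n was at 24.2, 47.5, 36.5 and 14.7 CPM and Clec4d at 38.2, 68.2, 53.8 and 24.2, each below all empty-vector libraries. Clec5a was at 51.8, 92.8, 76.2 and 36.3 CPM, likewise below them, and Clec4e at 32.1, 39.4, 36.6 and 26.7, which overlapped them. Their means with T354M and with GATA2 differed by less than the SD of either group in Clec7a, Clec4n, Clec4d, Clec4e and Clec5a.

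Clec4a1 was at 6.32, 9.61, 7.75 and 1.87 CPM and Clec4a3 at 6.91, 9.84, 8.83 and 2.51 with T354M, with replicate 4 lowest in both. Clec2d was at 22.9, 15.4, 18.5 and 20.4 CPM, below all empty-vector libraries, and Clec2i had a mean of 2.65 ± 0.43 CPM. Clec11a had its highest mean with T354M (3.22 ± 0.755 CPM against 2.00 ± 0.506 with the empty vector), and Clec10a, Clec9a and Clec4a4 had means of 1.71 ± 0.824, 0.322 ± 0.246 and 0.652 ± 0.602 CPM. Clec4a4 with T354M rests on replicate 3, at 1.55 CPM against 0.279 to 0.425 in the other libraries. Without T354M replicate 3 its log2 difference from the empty vector was -2.19, and with all 4 it was -1.30.

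**Figure D4:**
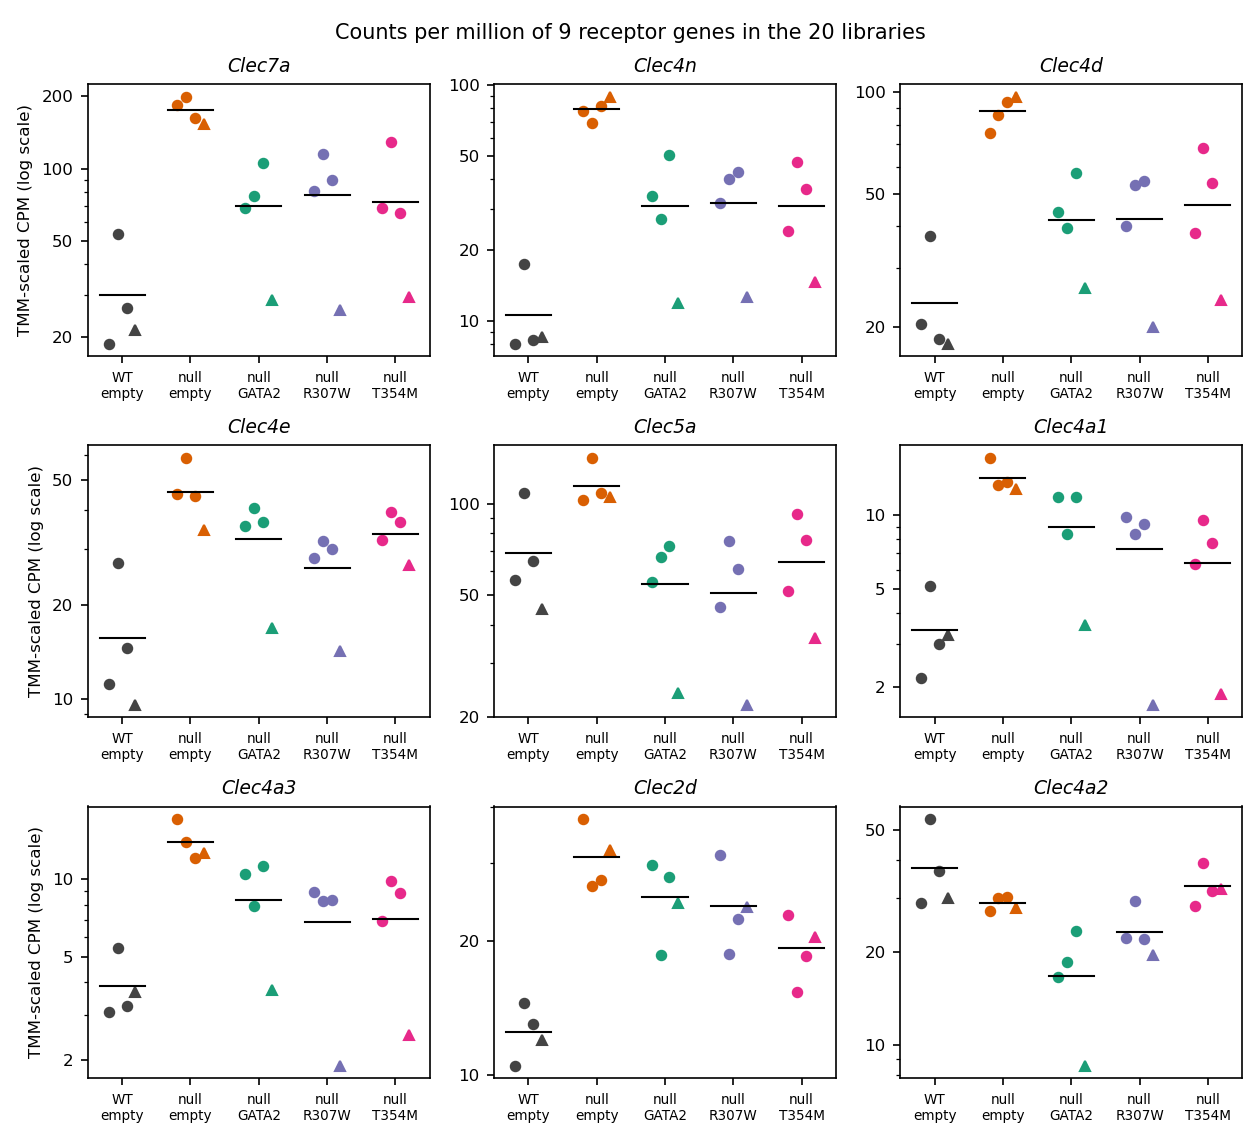
CPM per library on a log axis for named receptors, 1 panel a gene, with the 5 groups on the x axis; circles are replicates 1 to 3, triangles replicate 4 and bars the group means. In most panels the enhancer-null empty-vector group is highest and replicate 4 lowest with GATA2, R307W and T354M, while Clec4a2 has its lowest values with GATA2.

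Some marker sums stood high with T354M beside Clec12a. The 18 neutrophil markers summed to 7465 to 9528 CPM with T354M, 4588 to 6841 with R307W, 3153 to 4485 with GATA2 and 4278 to 5686 with the empty vector in enhancer-null cells. The 12 progenitor markers summed to 4924 to 7218 CPM with T354M, 4018 to 5488 with R307W, 2799 to 3427 with GATA2 and 2602 to 3001 with the empty vector. Both lists hold Mpo, the gene of the granule enzyme myeloperoxidase, which had means of 4532 CPM with T354M, 3413 with R307W, 1864 with GATA2 and 1664 with the empty vector. Mpo thus made up much of both sums, which do not show that either list as a whole stood high. Over the 12 progenitor markers the median log2 difference of T354M was 0.149 from the empty vector and 0.0427 from GATA2. Over the 18 neutrophil markers it was 0.366 from the empty vector and 1.302 from GATA2. The median log2 difference of R307W from T354M was -0.788 over the 18 neutrophil markers and 0.0899 over the 12 progenitor markers. By these medians the neutrophil list stood higher with T354M than with GATA2 or R307W. Wild-type libraries had neutrophil sums of 8546 to 18069 CPM, which overlapped those with T354M, and Clec12a at 150 to 259 CPM. T354M replicate 4 had the highest neutrophil and progenitor sums and the highest Clec12a of its group, and the lowest monocyte and macrophage sum, 1568 CPM against 3038 to 5245. The part of cell composition in the level of Clec12a was not tested.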

How the data were processed

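The 20 libraries were total RNA prepared with the NuGEN Ovation protocol, per the labels. Per the submitters' processing notes, STAR 2.5.2b, RSEM 1.3.0 and the build mm10 were used; strand settings and annotation are not given in the sources used here. The deposited tables hold, per gene and library, the expected count and the TPM that the authors made with RSEM; expected counts are fractional where reads map to several genes and were rounded here. Symbols and positions came from GENCODE M21 (53274 of 53379 identifiers matched), protein-coding status from GENCODE and RefSeq. No 2 libraries of a group were duplicates (chi-square per degree of freedom at least 18.1). The mitochondrial rRNA gene mt-Rnr2 took 17.9% to 24.6% of each library.

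Counts were tested with edgeR 4.0.16 (R 4.3.3): filterByExpr, TMM, quasi-likelihood F test, all 20 libraries with 5 group means, Benjamini-Hochberg over 15835 genes, calls at adjusted p under 0.05. The same steps were tested on simulated data. Members and lists were chosen with earlier results of these data known. Values in every library are given for Clec12a and for tested members that reached a mean of 5 CPM in some group and were called in a comparison without T354M; from each of the lists of signalling genes and of other C-type lectin domain genes, the 3 called genes with the lowest adjusted p in each direction for enhancer loss are named, leaving out genes under 5 CPM in every group. Clec4b2 and Clec9a by library were added after their values were seen.

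The labels number replicates 1 to 4 in every group, without saying what they share. Same-numbered libraries' deviations from their group means correlated above 0.1 in every pair for GATA2 with the empty vector, R307W and T354M, and for R307W with T354M, all in enhancer-null cells, so these numbers were taken to pair the libraries, from the data and not the labels; over all enhancer-null groups 22 of 24 such pairs were above 0.1 (median 0.28), against a median of -0.09 for 72 pairs of different number. Alternatives were other size factors, no filter, the replicate block, the 8 libraries of a comparison alone, DESeq2 1.42.0, limma 3.58.1 on log2(TPM + 1), and leaving out libraries.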

Additional observations from a re-analysis of the deposited data

Results flagged for a closer look

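The highest or lowest library stood apart from the other 3 of its group, by Dixon's 95% criterion for 4 values, in 9 of 95 sets of a gene and a group; chance alone gives about 1 in 20. Clec4n and Clec4d were highest in wild-type empty-vector replicate 2, at 17.5 CPM against 8.0 to 8.52 and at 37.5 CPM against 17.9 to 20.5 in the others. Clec5a and Clec4b2 were highest in enhancer-null empty-vector replicate 2, at 141 CPM against 103 to 108 and at 1.3 CPM against 0.639 to 0.711. Clec4a3 was lowest in R307W replicate 4, at 1.90 CPM against 8.29 to 8.93. Clec4a4 was highest in replicate 3 of GATA2 (1.27 CPM against 0.137 to 0.322), of R307W (1.73 against 0.242 to 0.463) and of T354M (1.55 against 0.279 to 0.425). Clec16a was lowest in enhancer-null empty-vector replicate 1, at 16.2 CPM against 17.3 to 17.5.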

How the results depend on the processing

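The number of genes of the family called for enhancer-null GATA2 against empty vector was 3, and 5 with DESeq2 size factors, no low-count filter, the 8 libraries alone, the DESeq2 Wald test or limma on TPM, 7 with the replicate block, 10 with the block over the 16 enhancer-null libraries (added after seeing the data), and 0 to 7 without single libraries. Over all genes 19.2% were called, and 19.2%, 6.83%, 25.6%, 22.3%, 13.9%, 25.8% and 34% under these settings in turn, and 9.77% to 21% without single libraries. For R307W against the empty vector it was 3, beside 17.5% of all genes, and 7 with no filter (6.27%), 6 with the 8 libraries alone (21.5%), 10 with the replicate block (25.9%), 11 with the block over 16 libraries (34.5%) and 0 to 5 without single libraries (7.91% to 18.4%). For these groups the numbers were not taken to pair the libraries, since 1 of the 4 same-number correlations was 0.019, under 0.1. Both groups were, however, taken to pair with GATA2. The genes that passed with the block beside Clec4n, Clec4d and Clec5a were Clec7a, Clec4e, Clec4a1, Clec4a3, Clec4a4, Clec10a and Clec12a (adjusted p = 0.00330, 0.00177, 0.0299, 0.0129, 0.0168, 0.0131 and 0.0324). For R307W against GATA2 it was 1 (1.73%), and 2 with no filter, the DESeq2 Wald test, the replicate block or the block over 16 libraries (0.895%, 2.72%, 2.78% and 4.12%), and 0 with the 8 libraries alone or without the replicate 4 library of every group (0.794% and 1.03%), 0 to 1 without single libraries. Without single libraries the counts were 12 to 14 (enhancer loss, 13) and 7 to 14 (GATA2 against wild-type, 10), with 14 and 15 under the replicate block, where 48.1% and 37.1% of all genes were called. Calls were not counted in comparisons with T354M, whose values chose the genes. The signalling genes called for enhancer loss were 36, and 18 at 2-fold or more and 30 to 37 without single libraries. The other C-type lectin domain genes were 19, and 19 to 21 without single libraries. Over all genes 43.3% were called for enhancer loss, 18.8% at 2-fold or more and 38.8% to 42.9% without single libraries. For GATA2 against wild-type the share was 30.7%, and 26.5% to 31.5% without single libraries. Of the single-gene values in tested comparisons, 1315 stayed on their side of the threshold, 86 newly passed it and 66 newly missed it. Direction was compared only where the main or the alternative fit called the gene, and 0 of those values changed it. The causes were not tested. Genes under about 3 CPM (Clec4a4, Clec4b1, Clec4b2, Clec9a, Clec14a) rest on few counts, and depth limits what can be said of the 12 untested genes.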
